A study of Mus musculus with 47 samples.

Results

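Estrogen and progesterone act on the mammary epithelium through receptors that are held mainly by a subset of luminal cells, and those cells pass the signal on to their neighbours by secreted factors. The 9 genes described here belong to that relay and its hormonal setting: the steroid receptor genes *Esr1*, *Pgr* and *Nr3c1*, the hormone response genes *Greb1* and *Cited1*, the secreted signals *Tnfsf11*, *Wnt4* and *Calca*, and *Tnfrsf11a*, the receptor of one of them. They were chosen by symbol, and all 9 were found among the 17078 genes of the expression table. The table came from RNA sequencing of luminal and basal mammary epithelial cells of FVB/N mice, an inbred strain with no transgene, at 8 stages. Non-pregnant mice were aged 10 weeks (W10) or 4 months (M4). The cycle was sampled on day 3.5 (P3.5) and day 14.5 (P14.5) of pregnancy, on day 3 (L3) and day 10 (L10) of lactation, and on day 2 (Id2) and in week 4 (Iw4) of involution. Cells of 4 mice were pooled for each sort, so a replicate is a sort of pooled mice and p-values measure the spread between sorts, and the cells were separated by the surface proteins CD24 and CD29 after a gate that, per the study's methods, removed cells bound by antibodies to surface proteins of blood, endothelial and stromal cells. Replicates 4 and 5 of L3 carry the same sort dates as replicates 4 and 5 of L10 and were counted as separate sorts. Values were present for 46 libraries, 24 luminal (3 for each stage) and 22 basal (3 for each stage, with 2 at P14.5 and 2 at L10). The libraries held 4398806 to 20023054 reads on genes (median 8518616). Levels are given in CPM, the authors' unit of reads relative to the effective size of the library, and 3 reads, the limit that a count of 0 allows, correspond to 0.17 to 1.05 CPM. These limits cover counting error only.

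The labelled cell types were checked against 8 luminal and 8 basal marker genes first. Summed luminal markers, of which *Cd24a* was the most abundant, were 4313 to 9547 CPM in the luminal libraries and 230.8 to 2461 CPM in the basal libraries, and none of the 8 was at 0 in either. Basal markers, led by the smooth muscle actin gene *Acta2*, were 87.57 to 2488 CPM in luminal libraries. In basal libraries outside Id2 they were 11770 to 73820 CPM. The Id2 basal libraries stood apart, with 1360 CPM in replicate 2, 17630 CPM in replicate 4 and 1100 CPM in replicate 6. Replicate 2 held 9582 CPM of endothelial markers, and replicate 6 held 72840 CPM of fibroblast markers, led by *Col1a1*. Replicate 4 held 10330 CPM of fibroblast and 10770 CPM of pericyte markers, against 641.2 to 1020 CPM and 95.36 to 121.9 CPM in the W10 basal libraries. Pericyte markers were also high in the basal libraries of lactation, at 1547 to 7380 CPM at L3 and 8683 and 15510 CPM at L10. The P14.5 basal libraries held 12160 and 6190 CPM of fibroblast markers, and replicate 5 of them held 48880 CPM of milk protein transcripts against 5801 CPM in replicate 3. The basal label is therefore used for Id2 as the name of the sorted fraction, and 3 calls of single genes between stages that rest on those libraries (of *Pgr*, *Cited1* and *Wnt4*) are also given without replicates 2 and 6. That leaves 1 library, replicate 4, which is assumed to vary like the other groups, so those values support nothing on their own. Luminal libraries at Id2 also held more endothelial and immune markers than at W10, with no overlap. Endothelial markers were 77.1 to 251.2 CPM against 14.06 to 31.18 CPM. Immune markers were 2594 to 4377 CPM against 406.1 to 528.6 CPM, and *Cd14* made up most of the sum (a mean of 3124 of 3246 CPM at Id2 and 453.8 of 467.3 CPM at W10), while the leukocyte gene *Ptprc* had a mean of 10.99 CPM at Id2. Of the adipocyte markers 3 of 6 were in the table, and *Fabp4*, which endothelial cells also make, was nearly the whole of their sum at Id2 (78.22 of 78.29 CPM in luminal and 1519 of 1524 CPM in basal libraries), with *Plin1* at 0 and 0.8614 CPM. Fibroblast markers overlapped, at 228.2, 500.1 and 5282 CPM against 122.1 to 408.6 CPM. A library of sorted cells gives an average, so fewer cells that make a transcript and less of it per cell cannot be told apart.

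In the mammary gland the estrogen receptor (*Esr1*) and the progesterone receptor (*Pgr*) are held by hormone-sensing luminal cells, and *Pgr* itself is a classical estrogen target. Progesterone induces RANK ligand (*Tnfsf11*), which acts on its receptor RANK (*Tnfrsf11a*) in neighbouring cells, and *Wnt4*, a Wnt ligand that acts on basal cells. *Calca*, another progesterone-responsive gene, encodes calcitonin and, by alternative splicing, the neuropeptide CGRP, which a count for the whole gene does not separate. *Greb1* is an estrogen-induced gene, *Cited1* encodes a transcriptional coactivator that works with the estrogen receptor, and *Nr3c1* encodes the glucocorticoid receptor, whose hormone is needed for milk production.

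Promoter sequences are shown for *Calca* and *Tnfsf11*, the pair of genes whose levels followed each other most closely across the 16 means of cell type and stage (r = 0.931). They are the 250 bases before the start site in RefSeq on GRCm38.p6, written 5′ to 3′ on the strand of the gene, and windows were used for 8 of the 9 genes. The window of *Calca* is chr7:114636358-114636607, minus strand. Its capitals mark a part of the estrogen response element (GGTCA, read on the opposite strand) that begins 130 bases before the start. The window of *Tnfsf11* is chr14:78308044-78308293, minus strand, and its capitals mark a TATA box sequence (TATAAA, read on the opposite strand) that begins 32 bases before the start.
Calca: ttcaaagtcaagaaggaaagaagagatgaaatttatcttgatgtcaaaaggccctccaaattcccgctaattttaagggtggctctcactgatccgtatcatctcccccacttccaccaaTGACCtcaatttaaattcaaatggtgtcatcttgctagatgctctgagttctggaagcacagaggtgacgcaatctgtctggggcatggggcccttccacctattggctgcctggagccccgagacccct
Tnfsf11: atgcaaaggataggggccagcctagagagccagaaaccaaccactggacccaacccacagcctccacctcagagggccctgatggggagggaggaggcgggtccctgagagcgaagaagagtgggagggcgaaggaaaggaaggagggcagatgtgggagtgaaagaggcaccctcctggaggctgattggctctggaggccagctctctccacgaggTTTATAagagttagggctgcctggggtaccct
On both strands of 32851 promoter windows of the same length, GGTCA was found in 35.2% and TATAAA in 12.4%. Neither window held the full estrogen response element, GGTCA and TGACC with any 3 bases between (0.0639% of windows, each of which also counts for GGTCA), the progesterone and glucocorticoid receptor element, AGAACA and TGTTCT with any 3 bases between (0.00913%), or TGTTCT alone (16.1%). Their base composition differed, with 48% G and C in the *Calca* window and 60.4% in that of *Tnfsf11*. A match is a description of the letters, not a bound site.

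Per kilobase of exon, the mean luminal level at W10 was highest for *Cited1* (175 CPM per kb), followed by *Calca* (45), *Wnt4* (26), *Pgr* (16.3), *Nr3c1* (10.8), *Esr1* (9.79), *Tnfrsf11a* (6.18), *Tnfsf11* (1.88) and *Greb1* (0.179), all in CPM per kb. The place of *Calca* in that order came from 1 of 3 libraries, as given below. In luminal libraries 22 to 24 of 24 held reads of each gene, except *Tnfsf11*, which had reads in 21. *Greb1* was scarce in both cell types, at 0 to 10.24 CPM in luminal and 0 to 7.53 CPM in basal libraries. In the GENCODE M21 annotation 7.68% of its exon bases are also covered by the antisense gene *Gm48140*, and the amplification kit does not mark strand, so reads there cannot be told apart. No other member shared exon bases.

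**Figure D1:**
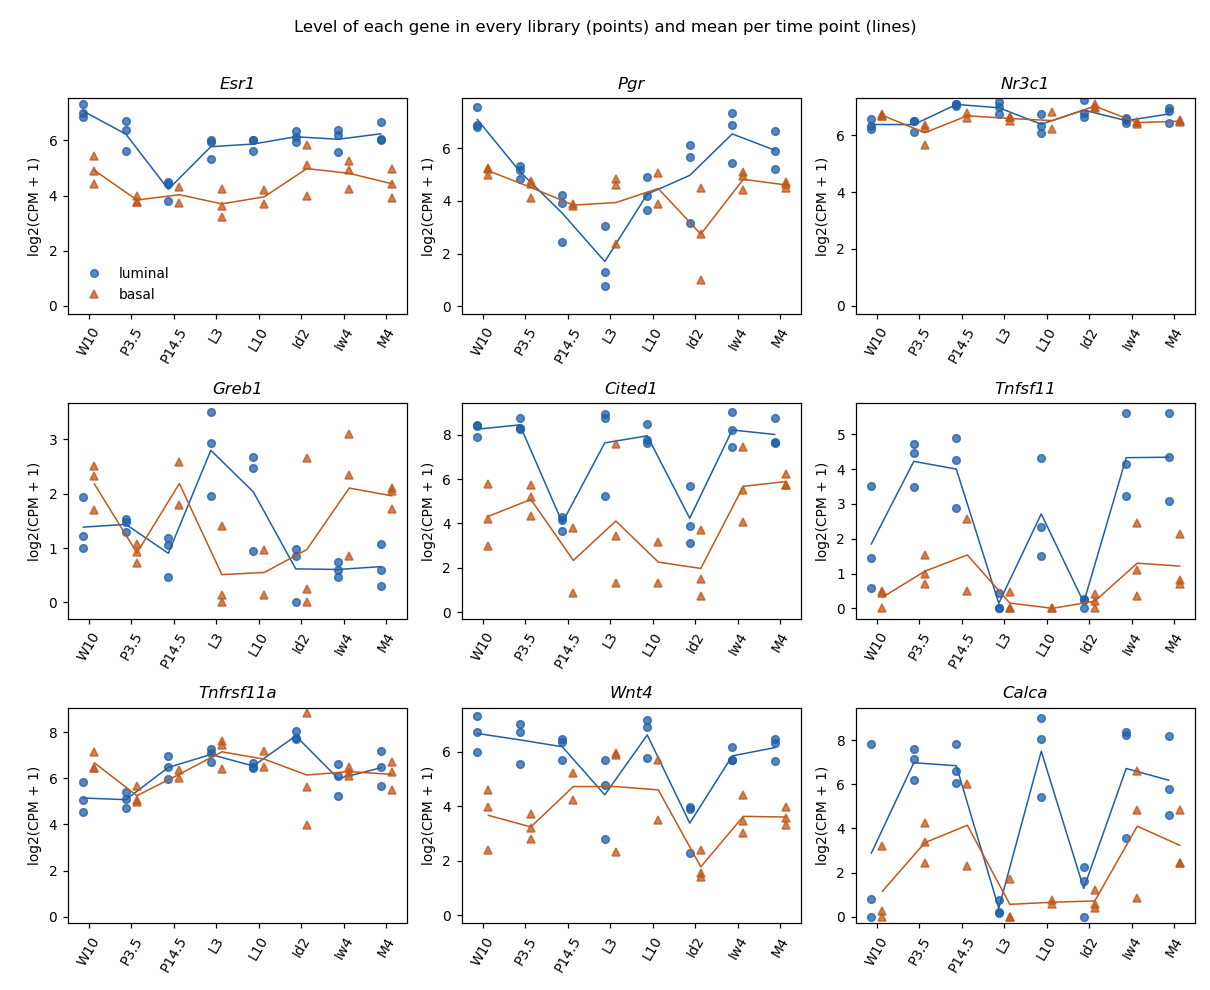
Level of each of the 9 genes as log2(CPM + 1) (vertical axis, which starts near 0 in each panel and differs in its upper end) in every luminal (circles) and basal (triangles) library at the 8 stages, with lines through the means. The luminal circles of Tnfsf11 lie near 0 at L3 and Id2 and those of Calca near 0 at L3 and low at Id2 (0 to 3.754 CPM), those of Esr1 and Cited1 are low at P14.5, and Nr3c1 stays between 49.44 and 148.6 CPM throughout.

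Luminal cells held more *Esr1*, *Tnfsf11*, *Wnt4* and *Cited1* than basal cells at 3 or more stages, while most comparisons of the 9 genes did not pass the test. A difference was called when it was at least 2-fold on the log2(CPM + 1) scale with an adjusted p under 0.01 by limma, fitted to all 46 libraries and adjusted over the 17078 genes. On that scale the fold of a scarce gene is understated. Of the 72 comparisons of 9 genes at 8 stages, 17 were called luminal, where 6.41% of all gene by stage comparisons were, and 1 was called basal, where 10.5% were. The median difference of the members, basal minus luminal, was -1.51 against 0.035 for all genes. By stage, 3 members were called luminal at W10 (5.12% of all genes), 3 at P3.5 (4.64%), 0 at P14.5 (3.39%), 3 at L3 (9.87%), 4 at L10 (10.9%), 0 at Id2 (9.39%), 1 at Iw4 (3.75%) and 3 at M4 (4.24%). At P14.5 and Id2, where limma called none in either direction, 2 and 5 members had an unadjusted p under 0.05 and edgeR called 0 at both. The luminal and basal libraries of a sort came from the same mice, and a fit with the sort as a block added 6 calls, all luminal, to these: *Cited1* at P3.5 (adjusted p = 0.0042 with the block, 0.016 without), *Tnfsf11* at P14.5 (0.0055 and 0.018), *Esr1* at Id2 (0.0036 and 0.011) and Iw4 (0.0033 and 0.011), *Pgr* at Id2 (0.0027 and 0.011) and *Wnt4* at Iw4 (0.0069 and 0.022). The block was not run without Id2 basal replicates 2 and 6, and with replicate 4 as the only Id2 basal library the differences without the block were -2.16 for *Esr1* and -3.99 for *Pgr*, beside -1.16 and -2.23 with all 3. Without the block *Esr1* was called luminal most often, at 5 stages, followed by *Tnfsf11* at 4, *Wnt4* and *Cited1* at 3 each, and *Greb1* and *Calca* at 1 each. *Pgr*, *Nr3c1* and *Tnfrsf11a* were called luminal at no stage in that fit.

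**Figure D2:**
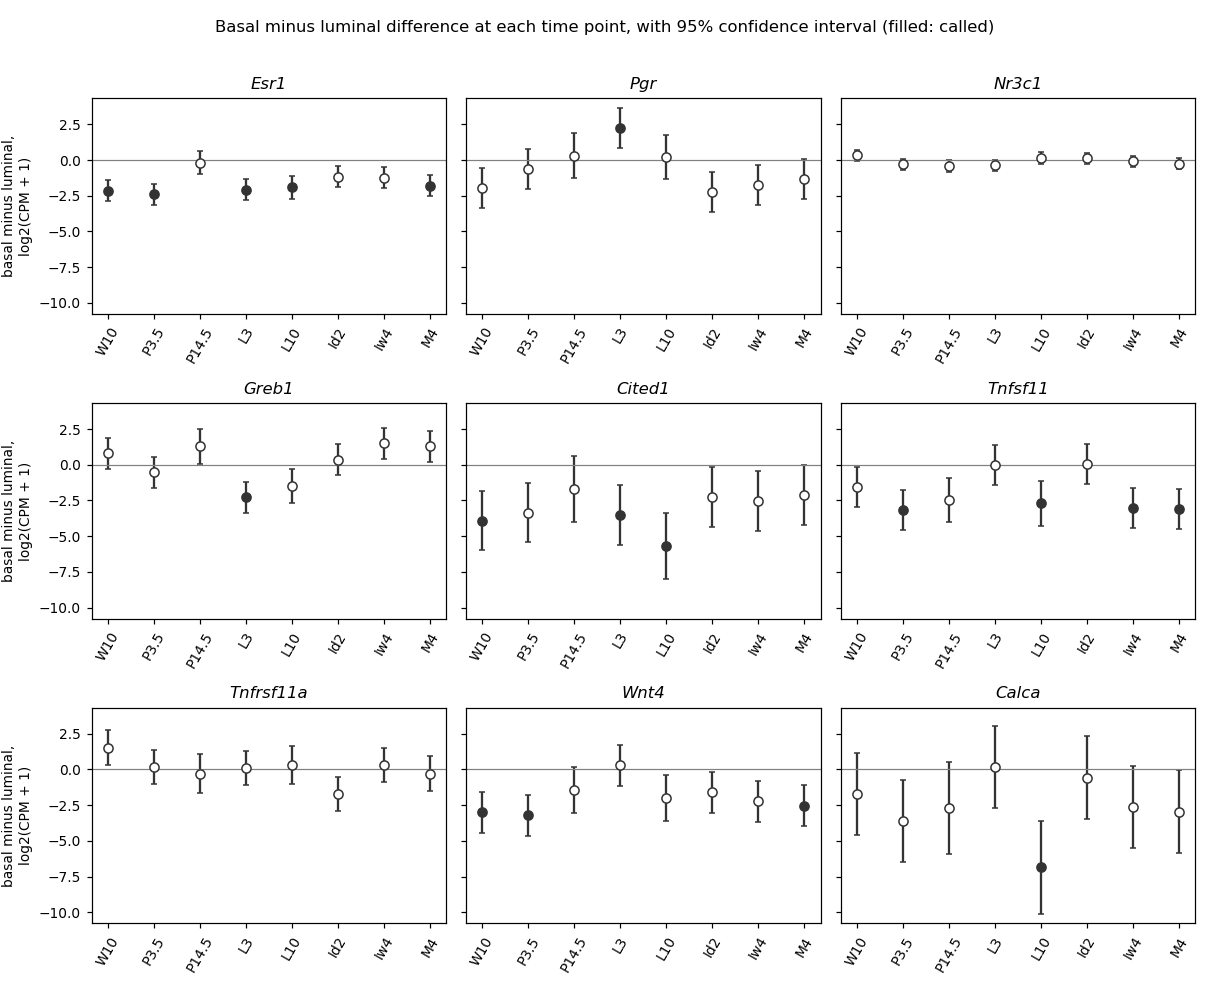
Basal minus luminal difference in log2(CPM + 1) of each gene (points, with 95% confidence intervals from limma) at the 8 stages; filled points were called and open points were not. Esr1 lies below 0 at all stages and is filled at 5, Pgr is filled above 0 at L3 only, and Nr3c1 and Tnfrsf11a have no filled point.

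*Esr1*, the estrogen receptor gene, had its highest luminal level at W10 and its lowest at P14.5. The W10 luminal libraries held 115, 159.4 and 126.7 CPM, above every other luminal library. The P14.5 libraries held 21.25, 12.88 and 20.25 CPM, below every other luminal library. P3.5 (82.26, 102.8 and 47.93 CPM), L3 (64.21, 60.51 and 39.63 CPM) and the remaining stages lay between, and the libraries of neighbouring stages in that order overlapped. From P3.5 to P14.5, stages amplified in 1 batch, *Esr1* fell by 2.00 on the log2 scale (standard error 0.359, adjusted p = 0.00056), a step in which 0.709% of all genes were called lower. Luminal endothelial markers were 2.02 to 15.51 CPM at P3.5 and 17.89 to 245.1 CPM at P14.5. Basal markers were 87.57 to 204.4 CPM and 231.5 to 375.1 CPM, and adipocyte markers 0.836 to 3.242 CPM and 11.5 to 104.3 CPM. Fibroblast, pericyte and immune markers overlapped. The part of these markers in the falls of *Esr1*, *Cited1* and other luminal genes at that step was not tested. From P14.5 to L3 *Esr1* rose by 1.55 (standard error 0.359, adjusted p = 0.0028), with 3.19% of all genes called higher. The rise fell under the threshold without P14.5 replicate 3 or without L3 replicate 4 or 5 (adjusted p 0.013 to 0.028), and was 1.15 (adjusted p = 0.012) with libraries scaled to reads outside the milk protein genes. Luminal against basal, *Esr1* was called at W10, P3.5, L3, L10 and M4, with basal differences of -2.39 (P3.5) to -1.81 (M4). At P14.5 the basal libraries (19 and 12.35 CPM) overlapped with the luminal range, with a difference of -0.20 (standard error 0.401, adjusted p = 0.79). The part of the fibroblast markers and milk transcripts of those libraries in the P14.5 basal levels was not tested.

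*Pgr*, the progesterone receptor gene, showed the widest stage range of the steroid receptor genes among the members in luminal cells. Its luminal libraries held 118.1, 111.5 and 187.1 CPM at W10, 39.42, 34.9 and 27.53 CPM at P3.5, 17.77, 4.423 and 14.09 CPM at P14.5, and 1.443, 7.181 and 0.7014 CPM at L3. At L10 they held 11.71, 17.11 and 29.1 CPM, and at Iw4 115.4, 159.9 and 42.14 CPM. The libraries at W10 lay above all those of pregnancy and lactation, yet no single step between successive stages was called. Lactation, taken as the mean of L3 and L10, was set against the mean of the non-pregnant stages W10 and M4, and *Pgr* fell by 3.53 (standard error 0.489, adjusted p = 6.5e-07) in luminal cells, where 5.83% of all genes were called lower. In basal cells it was 30.23, 36.7 and 36.28 CPM at W10, 23.5, 27.66 and 4.082 CPM at L3 and 13.71 and 32.29 CPM at L10, and the same contrast was -0.67 (standard error 0.518, adjusted p = 0.33). The difference between the cell types in that change was 2.86 (standard error 0.712, adjusted p = 0.0035), a test in which 10.3% of all genes were called. Without L10 basal replicate 6 it was no longer called (adjusted p = 0.02).

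At L3 *Pgr* was the one member for which the basal level was called higher, with a difference of 2.24 (standard error 0.691, adjusted p = 0.0091), where 15.9% of all genes were called basal. The cell types overlapped there, since basal replicate 6 (4.082 CPM) was below luminal replicate 5 (7.181 CPM). The call was lost in edgeR on the recovered reads (adjusted p = 0.015) and without L3 luminal replicate 4 or 6 or basal replicate 4 or 5 (adjusted p 0.041 to 0.068). At Id2 the luminal libraries held 67.78, 7.86 and 49.23 CPM and the basal libraries 21.55, 0.969 and 5.656 CPM, with replicate 4 lowest in both. Against W10, the basal Id2 level was called lower by 2.41 (standard error 0.691, adjusted p = 0.0073), with 8.58% of all genes called lower. That call was lost in edgeR (adjusted p = 0.049) and without any W10 basal library or Id2 replicate 4 or 6 (adjusted p 0.017 to 0.11), and with replicate 4, the lowest of the stage, as the only Id2 library the difference was -4.16, a value from 1 library.

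*Nr3c1*, the glucocorticoid receptor gene, was the steadiest member. Its luminal libraries ranged from 67.32 to 148.6 CPM (median 97.28) and its basal libraries from 49.44 to 135.1 CPM (median 93.48). The cell types differed at no stage by the test, with differences from -0.40 to 0.32. The highest luminal mean was at P14.5 (137.3, 129.9 and 137.4 CPM) and the lowest at P3.5 (89.82, 90.35 and 67.96 CPM). These libraries did not overlap, and the step was 0.71 (standard error 0.191, adjusted p = 0.026), under the 2-fold limit. Replicates lay close together: the standard deviation within a stage was 0.23 in luminal cells on the log2(CPM + 1) scale, a smaller spread than in all but 9.15% of genes.

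*Greb1*, an estrogen-induced gene, was called in opposite directions in the cell types in lactation. In luminal cells it was 2.886, 10.24 and 6.663 CPM at L3 and 0.9314, 5.365 and 4.576 CPM at L10, against 2.822, 1.331 and 0.9957 CPM at W10 and 1.099, 0.5178 and 0.2338 CPM at M4. In basal cells it was 0, 1.649 and 0.09278 CPM at L3 and 0.9608 and 0.09497 CPM at L10, against 3.992, 2.255 and 4.684 CPM at W10 and 3.153, 3.309 and 2.286 CPM at M4. The basal lactation libraries lay below all W10 and M4 basal libraries, while the luminal ones overlapped with W10. The change was 1.39 in luminal cells (standard error 0.376, adjusted p = 0.0041; 7.37% of all genes were called higher) and -1.54 in basal cells (standard error 0.399, adjusted p = 0.0026; 6.97% called lower). Markers of other cells moved with lactation too. In luminal libraries 6 of 8 basal and 7 of 8 endothelial markers were called higher. In basal libraries 5 of 8 luminal markers were called lower and 8 of 8 endothelial and 6 of 6 pericyte markers higher. Basal means of the adipocyte marker *Lep* were 195.1 CPM at L3 and 222.3 CPM at L10, against 1.597 CPM at W10 and 1.11 CPM at M4. Those of *Fabp4* were 428.5 and 513.7 CPM against 21.13 and 43.32 CPM. The part of all these markers in the changes of *Pgr*, *Greb1* and *Tnfsf11* was not tested. The difference between the cell types in the change of *Greb1* was -2.93 (standard error 0.549, adjusted p = 0.00015, and 0.0025 in edgeR). The luminal call alone was lost in edgeR (adjusted p = 0.017), with a pseudocount of 0.1 (0.03), with scaling outside the milk genes (0.013) and without any 1 of 6 libraries: W10 replicates 5 and 6, L3 replicate 5, L10 replicates 5 and 6 and M4 replicate 6 (adjusted p 0.011 to 0.016). The basal call was lost in edgeR (0.015) and without L10 basal replicate 6 (0.028). At L3 *Greb1* was called luminal (-2.28, standard error 0.532, adjusted p = 0.00068), with 0.011 in edgeR.

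*Cited1*, the coactivator gene, was abundant in luminal cells at most stages and low at P14.5 and Id2. Its luminal libraries held 235.2 to 350.3 CPM at W10 and 305.7 to 432.8 CPM at P3.5. They then held 16.69, 11.6 and 18.65 CPM at P14.5 and 50.78, 13.66 and 7.73 CPM at Id2. At L3 replicates 4 and 5 held 481.2 and 433.8 CPM and replicate 6 held 36.12 CPM, and at Iw4 the libraries held 516, 291.3 and 170.6 CPM. The P14.5 libraries did not overlap with those of any stage but Id2. The fall from P3.5 to P14.5 was 4.41 (standard error 1.03, adjusted p = 0.0085), and it passed the threshold with all libraries but not without any 1 of the 6 (adjusted p 0.03 to 0.048), nor in edgeR (0.024), where the fold was of the same size. Id2 was lower than W10, its batch partner, by 4.02 (standard error 1.03, adjusted p = 0.0043, and 0.02 in edgeR), where 4.14% of all genes were called lower, and the call was lost without any of the W10 libraries or Id2 replicate 4 or 6 (0.01 to 0.033). From Id2 to Iw4 it rose by 3.98 (standard error 1.03, adjusted p = 0.0046, and 0.017 in edgeR), with 4.39% of all genes called higher, and this call was lost without Id2 replicate 4 or 6 or Iw4 replicate 3 or 5 (0.016 to 0.036).

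Basal *Cited1* was lower and uneven, from 0.6783 to 190.5 CPM. Luminal against basal, it was called at W10 (-3.93, adjusted p = 0.0039), L3 (-3.52, adjusted p = 0.0057) and L10 (-5.69, adjusted p = 0.00014). Without 1 library the W10 call was lost in 4 cases (luminal replicates 3 and 5, basal replicates 3 and 6; adjusted p 0.015 to 0.044), the L3 call in 4 (luminal 4 and 5, basal 5 and 6; 0.03 to 0.11) and the L10 call in 1 (basal 6; 0.014). In edgeR only the L10 call of these held (0.0029). In basal lactation the change of *Cited1* was -1.92 (adjusted p = 0.049), and without L3 basal replicate 4, which held 190.5 CPM beside 9.77 and 1.485 CPM in the other replicates, it was -2.79 (adjusted p = 0.0015). From Id2 to Iw4 basal *Cited1* rose by 3.70 (standard error 1.03, adjusted p = 0.0056), where 8.14% of all genes were called higher. With replicate 4, the lowest, as the only Id2 library the difference was 4.92, a value from 1 library, and without any 1 of Id2 replicates 4 and 6 and Iw4 replicates 3 and 5 its adjusted p was 0.015 to 0.061.

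*Tnfsf11*, the RANK ligand gene, was close to undetected in luminal cells at L3 and Id2. Its luminal libraries held 0, 0 and 0.3507 CPM at L3 (0, 0 and 1 read) and 0.1976, 0.1872 and 0 CPM at Id2 (1, 1 and 0 reads). At P3.5 they held 25.28, 10.17 and 21.17 CPM, at P14.5 6.336, 17.99 and 28.43 CPM, at L10 18.76, 1.812 and 4.058 CPM, at Iw4 16.62, 8.363 and 48.14 CPM and at M4 7.417, 48.05 and 19.17 CPM. W10 was the low non-pregnant stage, with 10.38, 1.752 and 0.4979 CPM. By value, every library of L3 and Id2 lay below every other luminal library. The limit of 3 reads was 0.3532 to 1.052 CPM at L3 and 0.5615 to 0.6103 CPM at Id2. Their order with W10 replicate 6 (0.4979 CPM) is therefore not certain. From P14.5 to L3 *Tnfsf11* fell by 3.86 (standard error 0.691, adjusted p = 0.00019), with 2.97% of all genes called lower, and from Id2 to Iw4 it rose by 4.16 (standard error 0.691, adjusted p = 3.2e-05). Both held without any 1 library. These sizes depend on the pseudocount, since L3 and Id2 hold at most 1 read a library. From L3 to L10, within an amplification batch, the difference was 2.57 (standard error 0.691, adjusted p = 0.042, and 0.008 with a pseudocount of 0.1). Over lactation as a whole it fell by 1.67 (standard error 0.489, adjusted p = 0.0077), a call lost without any 1 of 9 of the 12 libraries (all but W10 replicate 6, L10 replicate 4 and M4 replicate 1; adjusted p 0.01 to 0.043).

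Basal *Tnfsf11* did not pass 4.938 CPM in any library, and 10 of the 22 held fewer than 3 reads. It was called luminal at P3.5 (-3.16, adjusted p = 0.00072), L10 (-2.71, adjusted p = 0.0052), Iw4 (-3.03, adjusted p = 0.0013) and M4 (-3.13, adjusted p = 0.00084). The P3.5 call held without any 1 library. The others were lost without L10 luminal replicate 4 or basal replicate 5 or 6 (0.031 to 0.061), without Iw4 basal replicate 5 or luminal replicate 6 (0.018 to 0.022), and without M4 luminal replicate 2 (0.016), and Iw4 also in edgeR (0.015). At L3 and Id2, where no library of either cell type held more than 4 reads of the gene, no difference was detectable at this depth.

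*Calca*, the calcitonin and CGRP gene, was low at the same stages as *Tnfsf11*, over a wider range of levels. At L3 the luminal libraries held 0.1804, 0.1177 and 0.7014 CPM (1, 1 and 2 reads), and at L10 516.6, 41.47 and 265.3 CPM. At Id2 they held 3.754, 2.059 and 0 CPM, and at Iw4 301.5, 10.75 and 324.6 CPM. At P3.5 they held 190, 72.24 and 141.3 CPM and at P14.5 97.05, 66.25 and 226.4 CPM. The L3 libraries lay below all luminal libraries outside W10 and Id2. *Calca* fell by 6.45 from P14.5 to L3 (standard error 1.42, adjusted p = 0.0018), rose by 7.11 from L3 to L10 (adjusted p = 0.0058), fell by 6.21 from L10 to Id2 (adjusted p = 0.0035) and rose by 5.43 from Id2 to Iw4 (adjusted p = 0.0052). It was the only member called between L3 and L10, stages of 1 amplification batch in which 0.281% of all genes were called higher. In edgeR the first of these steps kept its call (adjusted p = 0.0098) and the other three had adjusted p of 0.034, 0.016 and 0.012. Left out singly, P14.5 replicate 5 ended the first call (0.015), L3 replicates 4 and 6 and L10 replicates 4 and 6 the second (0.017 to 0.033), L10 replicates 4 and 6 and Id2 replicates 4 and 6 the third (0.012 to 0.027), and Id2 replicates 4 and 6 and Iw4 replicates 3 and 6 the last (0.014 to 0.042).

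At W10 the 3 luminal libraries held 226.4, 0.7707 and 0 CPM of *Calca* (2246, 11 and 0 reads). Replicate 3 was at the level of the pregnancy libraries and replicates 5 and 6 were close to L3. The basal libraries of the same sorts held 8.279, 0.205 and 0 CPM, in the same order. Across the luminal libraries the standard deviation of *Calca* within a stage was 2.11 on the log2(CPM + 1) scale, rank 1 among the 17078 genes. *Tnfsf11* (1.06), *Cited1* (0.981) and *Pgr* (0.935) were among the more variable genes as well, with 99%, 98.4% and 97.9% of genes below them. In basal cells *Calca* was called lower than in luminal cells at L10 alone (-6.83, adjusted p = 0.00077), where the basal libraries held 0.6988 and 0.4748 CPM. Without L10 basal replicate 6 the adjusted p was 0.014.

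*Wnt4*, the Wnt ligand gene, was low in luminal cells at Id2. Its luminal libraries held 13.83, 3.93 and 14.65 CPM at Id2, against 160.1, 104.5 and 62.36 CPM at W10 and 143, 53.86 and 121 CPM at L10. The L3 libraries, at 26.51, 50.86 and 5.961 CPM, overlapped with Id2. It fell by 3.24 from L10 to Id2 (standard error 0.708, adjusted p = 0.0023; 2.41% of all genes were called lower), and Id2 was lower than W10 by 3.29 (standard error 0.708, adjusted p = 0.00081). Without Id2 replicate 4 the adjusted p of these was 0.028 and 0.013, and the first call was also lost without L10 replicate 4 (0.016) or 6 (0.012). Basal *Wnt4* was called below luminal at W10 (-3.01, adjusted p = 0.0014), P3.5 (-3.20, adjusted p = 0.00082) and M4 (-2.55, adjusted p = 0.0075). The P3.5 call held without any 1 library, the W10 call was lost without luminal replicate 3 or basal replicate 6 (0.014 to 0.028) and the M4 call without any 1 of the 6 libraries (0.012 to 0.036). At L3 the basal libraries (58.95, 61.41 and 3.99 CPM) spanned the luminal ones, with a difference of 0.30 (standard error 0.708, adjusted p = 0.78). Replicate 6 was the lowest in both cell types. In basal cells *Wnt4* fell by 2.83 from L10 to Id2 (standard error 0.792, adjusted p = 0.0078; 7.68% of all genes were called lower), to 4.216, 1.647 and 1.939 CPM. With replicate 4, the lowest, as the only Id2 library the difference was -3.20, a value from 1 library, and without L10 replicate 5 or Id2 replicate 4 or 6 alone the adjusted p was 0.023 to 0.19.

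*Tnfrsf11a*, the gene of the RANK receptor, had its highest luminal level at Id2. Its luminal libraries held 215.8, 265.6 and 210.8 CPM at Id2, above every other luminal library, and 32.75, 22.14 and 56.01 CPM at W10. L3 (155.7, 105.1 and 136.1 CPM) and P14.5 (62.04, 123.9 and 88.67 CPM) lay between. Id2 was higher than W10 by 2.70 (standard error 0.595, adjusted p = 0.001), where 6.23% of all genes were called higher, and without W10 replicate 5 the adjusted p was 0.011. At L3 and Id2, the stages with *Tnfsf11* at its lowest, its receptor gene had its 2 highest luminal means (132.3 and 230.7 CPM). The L3 libraries overlapped with those of P14.5 and of M4 (49.91 to 146.6 CPM). The step from P14.5 to L3 was not called by limma (0.56, adjusted p = 0.6). Unlike the ligands, *Tnfrsf11a* was not called between the cell types at any stage, and its difference at W10 was 1.53 (95% confidence interval 0.324 to 2.74, adjusted p = 0.057). At Id2 its basal libraries held 454.1, 48.94 and 14.71 CPM, and the highest of these was the library rich in endothelial markers. What those markers have to do with that level was not tested, nor was the part of the other cells' markers in the luminal Id2 levels of *Tnfrsf11a*, *Wnt4* and *Cited1*.

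Over the 8 stages, all 9 members varied in luminal cells by the F test of limma (adjusted p from 4.4e-07 for *Tnfsf11* to 0.0048 for *Greb1*), where 34% of all genes did. With a pseudocount of 0.1 *Greb1* did not pass (0.032), and with scaling outside the milk genes *Tnfrsf11a* did not (0.021). Without Id2 the count was 7, as *Tnfrsf11a* (0.038) and *Wnt4* (0.099) no longer passed. In basal cells 3 varied (*Esr1*, *Cited1* and *Nr3c1*; adjusted p 0.0064, 0.0044 and 0.0076), where 44.5% of all genes did. In edgeR the count was 3 as well, but of *Esr1* (0.0027), *Wnt4* (0.0014) and *Tnfsf11* (0.0082), with *Cited1* at 0.011 and *Nr3c1* at 0.012, and in luminal cells edgeR passed 8, without *Greb1* (0.016). With the sort as a block the basal count was 5, with *Greb1* (0.0091) and *Wnt4* (0.0072) added, and without Id2 none passed (adjusted p 0.021, 0.028 and 0.11 for *Esr1*, *Cited1* and *Nr3c1*). Of the 54 luminal comparisons of successive stages 11 were called, against 4.16% of all gene by step comparisons, and of the 54 basal ones 2, against 7.69%. No member was called from W10 to P3.5, where 1.82% of luminal and 6.76% of basal genes were called; 4 members in each cell type had an unadjusted p under 0.05, and edgeR called 0. For Iw4 against M4 in luminal cells, where limma called 0% of all genes, 0 members had an unadjusted p under 0.05, edgeR called 0 members, and the differences were -0.47 to 0.62, with *Calca* at 0.53 (standard error 1.42). In basal cells limma called 0 members and 0.00586% of all genes, and again no member had an unadjusted p under 0.05 or was called by edgeR. Stages amplified in different batches (any comparison but those within pregnancy, within lactation, of W10 with Id2 and of M4 with Iw4) cannot be told apart from the batch. Within those pairs, 5 members were called in luminal cells (*Esr1*, *Cited1*, *Calca*, *Tnfrsf11a* and *Wnt4*) and 1 in basal cells (*Pgr*), where 11.2% of all luminal and 19.9% of all basal genes were called in at least 1 of the pairs. The stages of the pairs other than M4 with Iw4 were still sequenced in different lanes, so stage and lane cannot be told apart there.

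Replicates of a stage did not vary independently from gene to gene. Each luminal library's deviation from its stage mean was taken for every member, and the 36 pairs of members were compared over the 24 libraries, with permutation tests (100000 permutations within stages, two-sided) adjusted over the 36. *Calca* and *Tnfsf11* deviated together (Pearson r = 0.829, permutation p = 7e-05, adjusted p = 0.0025; Spearman rho = 0.805, permutation p = 0.00026, adjusted p = 0.0094). Without the 2 libraries farthest from the median of *Tnfsf11*, r was 0.793. Within amplification batches of 6 libraries, r was 0.966 (W10 and Id2), 0.886 (lactation) and 0.665 (pregnancy), and over the 6 Iw4 and M4 libraries it was 0.855. The Id2 and L3 libraries held 0 or 1 read of *Tnfsf11* and add little to any of these values. The 0.966 thus rests mainly on W10, where replicate 3 deviated by 4.94 for *Calca* and 1.66 for *Tnfsf11*, and the 0.886 mainly on L10. *Esr1* and *Pgr* were the other pair past 0.05 by Pearson's r (0.633, permutation p = 0.0014, adjusted p = 0.025), but not by Spearman's rho (0.584, permutation p = 0.009, adjusted p = 0.11). Without the 2 libraries farthest from the median of *Esr1*, r was 0.625. *Esr1* and *Tnfsf11* pointed in opposite directions (r = -0.571, adjusted p = 0.11).

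**Figure D3:**
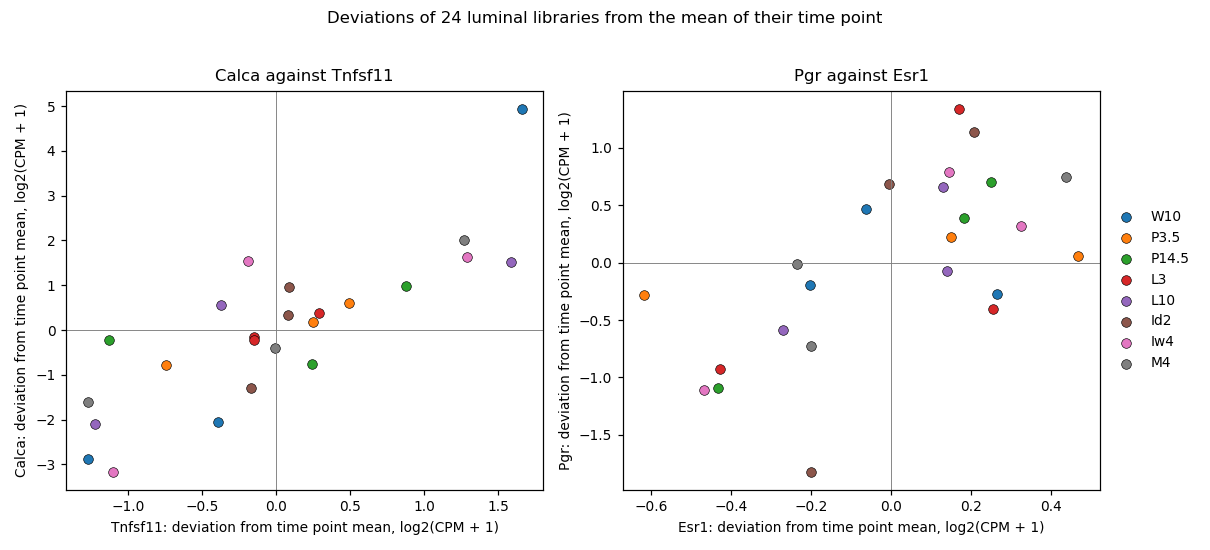
Deviation of each of 24 luminal libraries (points, coloured by stage) from the mean of its stage in log2(CPM + 1), for Calca against Tnfsf11 (left, r = 0.829) and Pgr against Esr1 (right, r = 0.633). The W10 library at the upper right of the left panel is replicate 3, with 226.4 CPM of Calca.

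These deviations also ran with the make-up of the library as a whole. The first principal component of the deviations of the 9854 genes with a luminal mean of at least 5 CPM, which held 18% of their variance, had r = 0.797 with *Tnfsf11*, 0.652 with *Calca*, -0.718 with *Esr1* and -0.57 with *Pgr*. The share of those genes with a smaller r, in absolute size, was 98.4% for *Tnfsf11*, 95.8% for *Esr1*, 92.4% for *Calca* and 86.1% for *Pgr*. With that component removed, r was 0.676 for *Calca* with *Tnfsf11* and 0.39 for *Esr1* with *Pgr*. With the log2 of reads, r was -0.0571 for *Calca*, -0.339 for *Tnfsf11*, 0.418 for *Esr1* and 0.232 for *Pgr*. The genes closest to *Calca* in these deviations were *Scrib* (0.876), *Cdh2* (0.864) and *Mrpl12* (0.856), ahead of *Tnfsf11*, whereas *Calca* was the closest to *Tnfsf11*. What sets the component was not tested.

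The luminal and basal libraries of a sort were then compared. Over the 22 sorts with both libraries, the luminal and basal deviations of a gene correlated for 5 of the 9 members at an adjusted permutation p of 0.036 (Pearson, 100000 permutations within stages, adjusted over 9): *Pgr* (r = 0.751), *Cited1* (0.739), *Calca* (0.72), *Nr3c1* (0.596) and *Esr1* (0.494). Most genes were positive here: over 17066 genes the median r was 0.192, and 71.8% were above 0. An r at least as high as that of the member was found in 1.49% of genes for *Pgr*, 1.75% for *Cited1*, 2.26% for *Calca*, 7.99% for *Nr3c1* and 15.6% for *Esr1*. By Spearman's rho 4 of these passed (permutation test, adjusted p 0.031 to 0.045), and *Esr1* did not (0.085). Without the 2 luminal libraries farthest from the median, r was 0.61 for *Pgr*, 0.624 for *Cited1*, 0.588 for *Calca*, 0.66 for *Nr3c1* and 0.486 for *Esr1*. The level of luminal markers in a basal library moved with some of them. Across the 22 basal libraries, deviations of the summed luminal markers correlated with basal *Cited1* (r = 0.713, permutation p = 0.0058, adjusted p = 0.026; rho = 0.771, adjusted p = 0.018) and basal *Wnt4* (r = 0.666, permutation p = 0.0014, adjusted p = 0.013; rho = 0.719, adjusted p = 0.018). Without the 2 libraries farthest from the median marker level, these were 0.769 and 0.68. Over all genes the median r with these markers was 0.000181, with 0.943% of genes at or above *Cited1* and 1.69% at or above *Wnt4*. For *Esr1* (r = -0.111), *Pgr* (0.188), *Calca* (0.309) and *Nr3c1* (-0.212) the adjusted p was 0.47 to 0.76. The part of luminal cells in the basal levels was not tested further.

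**Figure D4:**
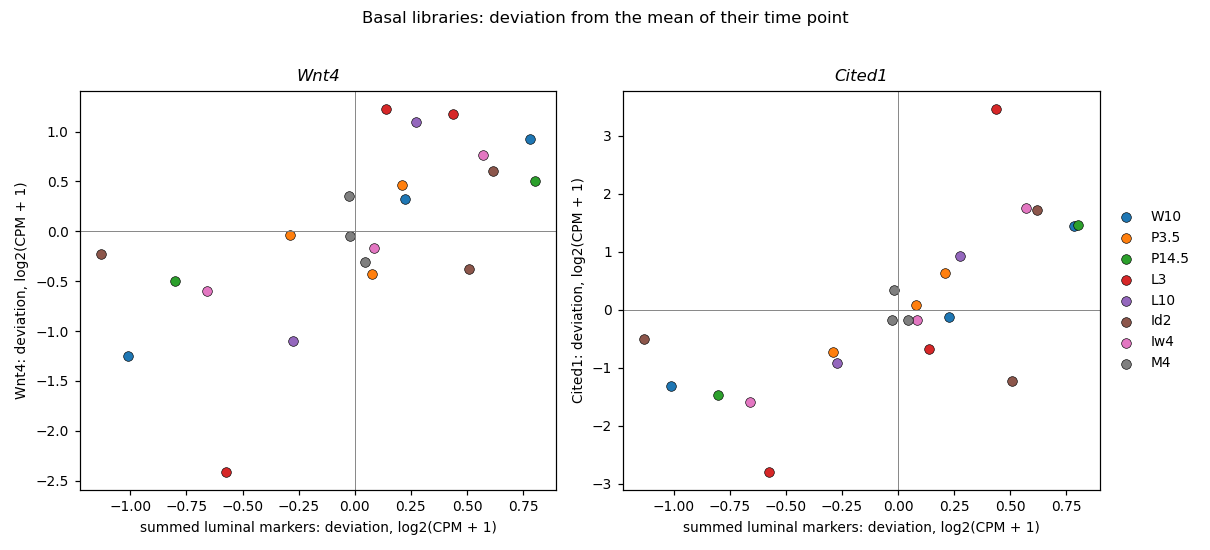
Deviation of each of 22 basal libraries (points, coloured by stage) from its stage mean, in log2(CPM + 1), for Wnt4 (left) and Cited1 (right) against the summed luminal markers of the same library. Both rise from left to right (r = 0.666 and 0.713), and the highest Cited1 point is L3 replicate 4.

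Other genes of the same circuit were described from lists, by counts and medians. Of 9 further hormone-sensing luminal genes, 6 were called luminal at W10, against 5.12% of all genes, and none basal (median difference -2.74 against 0.0125 for all genes). The largest were the prolactin receptor gene *Prlr* (-3.98, adjusted p = 0.00024), *Areg* (-3.69, adjusted p = 0.00049), which encodes the epidermal growth factor ligand amphiregulin, and *Foxa1* (-3.57, adjusted p = 8.8e-05), a pioneer factor for the estrogen receptor. From P3.5 to P14.5, the step at which *Esr1* and *Cited1* fell, 4 of the 9 fell, against 0.709% of all genes, and none rose (median -1.39 against 0), led by *Areg* (-3.69, adjusted p = 0.0037), *Foxa1* (-2.83, adjusted p = 0.0092) and *Prom1* (-2.69, adjusted p = 0.0089). In luminal lactation, where 5.83% of all genes fell and 7.37% rose, 3 fell (*Areg*, *Prom1* and *Foxa1*) and 1 rose, with a median of -0.67 against -0.00735. The mean luminal level of *Areg* was 245.7 CPM at W10, and 11.95 CPM at L3 and 4.275 CPM at Id2, the stages at which *Tnfsf11* was lowest. At P14.5 it was 24.49 CPM, where the mean of *Tnfsf11* was 17.59 CPM, while *Tnfsf11* had a mean of 4.21 CPM at W10.

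Of 13 RANK pathway genes, 1 fell and 2 rose in luminal lactation, against the same shares of 5.83% and 7.37% (median -0.33 against -0.00735). *Ccnd1*, the cyclin D1 gene, fell by 1.42 (adjusted p = 0.0025), with luminal means of 85.09 CPM at L3 and 339.3 CPM at L10 beside 432.4 CPM at W10 and 418.6 CPM at M4. *Tnfrsf11b*, which encodes the decoy receptor osteoprotegerin, rose by 1.59 (adjusted p = 0.003) and *Id2*, an inhibitor of differentiation factors (the gene, not the stage), by 1.17 (adjusted p = 3.5e-05). Luminal means of *Tnfrsf11b* were 0.3339 CPM at W10, 0.3418 CPM at M4, 9 CPM at L3 and 1.782 CPM at L10. Its basal means were 9.163 to 32.55 CPM. Summed basal markers of the luminal libraries had means of 173.8 CPM at W10, 860.7 CPM at L3 and 1271 CPM at L10, and their part in this rise was not tested. Involution day 2 against W10 gave 3 lower and 2 higher (4.14% and 6.23% of all genes), with *Ccnd1* down by 3.77 (adjusted p = 1.5e-06) and the *Id2* gene up by 2.88 (adjusted p = 5.5e-09). At W10 *Tnfrsf11b* was called basal (3.86, adjusted p = 3.5e-06), and *Elf5*, a milk-lineage transcription factor, luminal (-3.35, adjusted p = 4.7e-06). A list of 9 genes linked to Wnt signals held receptor genes but also others, such as the agonist gene *Rspo1* and *Adamts18*. Of these, 4 were called basal at W10, against 9.1% of all genes, and none luminal (median 2.07 against 0.0125). The largest were *Adamts18* (6.87, adjusted p = 1.3e-10), the receptor gene *Lgr5* (5.73, adjusted p = 1.2e-09) and the Wnt target *Axin2* (3.78, adjusted p = 3.4e-07). In basal lactation, where 6.97% of all genes fell and 9.58% rose, 3 of the 9 fell and 1 rose (median -0.46 against -0.0453).

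Of 7 genes listed for the calcitonin and CGRP system, 5 were in the table (*Calcrl*, *Ramp1*, *Ramp2*, *Ramp3* and *Adm*). *Calcr*, the calcitonin receptor gene, and *Calcb* were not, so the receptor of calcitonin itself was not measured. In luminal lactation, with 7.37% of all genes called higher, 3 of the 5 rose, all receptor accessory protein genes: *Ramp1* by 2.39 (adjusted p = 1.9e-06), *Ramp2* by 2.19 (adjusted p = 0.0013) and *Ramp3* by 1.23 (adjusted p = 0.009). The median of the 5 was 1.23 against -0.00735 for all genes. The mean of *Ramp2* was 0.3079 CPM at W10 and 8.94 CPM at L3, where the summed endothelial markers of the luminal libraries had means of 21.6 and 226.3 CPM, and their part in these rises was not tested. Of 12 glucocorticoid-responsive genes, 4 rose in luminal lactation and none fell (median 0.83), with *Dusp1*, a phosphatase gene, up by 1.65 (adjusted p = 5.4e-07), *Cebpd* by 1.51 (adjusted p = 4.7e-05) and the metallothionein gene *Mt2* by 1.39 (adjusted p = 0.00013). Of 7 other steroid and related receptor genes in the table, 3 rose and 1 fell, with 5.83% of all genes called lower (median 0.62 against -0.00735). The vitamin D receptor gene *Vdr* rose by 1.99 (adjusted p = 3e-09) and *Esrra* by 1.35 (adjusted p = 0.00014), and the mineralocorticoid receptor gene *Nr3c2* fell by 1.40 (adjusted p = 2.1e-05). Of 13 receptor cofactors and chaperones only *Ptges3*, a cochaperone of the steroid receptors, was called (-1.34, adjusted p = 2.9e-06), beside the same 5.83%, and their median was 0.17. Of the 7 milk protein genes 6 rose (median 4.88), and these 7 took 27.13% to 58.16% of the reads of the L3 luminal libraries, against 1.007% to 2.595% at W10.

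Genes of like pattern were sought by Pearson's r over the 16 means of cell type and stage, given as a description, since the points share libraries and the split between cell types. *Tnfsf11* and *Calca* were each the other's closest gene (0.931), and the next for both was *Rspo1*, the gene of a Wnt agonist (0.884 and 0.908). The luminal mean of *Rspo1* was 615.4 CPM at P14.5, 3.05 CPM at L3, 150 CPM at L10 and 1.441 CPM at Id2. *Prlr* was closest to *Esr1* (0.944), *Gm16485* to *Pgr* (0.939), *Msx2* to *Cited1* (0.931), the *Id2* gene to *Tnfrsf11a* (0.885) and *Selenop* to *Nr3c1* (0.862). *Greb1*, with a mean under 5 CPM, was not used in this comparison.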

How the data were processed

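RNA of sorted luminal and basal cells was amplified from 5 ng (Ovation RNA-Seq V2, which does not mark strand) and sequenced by the authors. Per the labels and processing notes, reads were aligned with GSNAP, counted with HTSeq and scaled with edgeR. The deposited signal values are CPM, reads relative to the effective library size, made by the authors. All values were whole multiples of 1 read (100% within 1e-06), so read counts were recovered for an edgeR quasi-likelihood test as an alternative. Of the 72 comparisons of a member between the cell types at a stage, edgeR called 13 luminal and 0 basal where limma called 17 and 1. Of 47 libraries described, 46 had values, and P14.5 basal replicate 2 was not analysed here. Of 17078 genes 181 had no symbol.

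Values were tested as log2(CPM + 1), with no filter on low values, by limma with a mean-variance trend over 16 means of cell type and stage, with Benjamini-Hochberg adjustment over all genes, and called at 2-fold and an adjusted p under 0.01. In data simulated for luminal lactation on 17078 genes, limma called 2% of genes changed 2-fold and 73% of those changed 4-fold, edgeR 4% and 83%, and neither called an unchanged gene. The simulated counts had the same dispersion for every gene and no link between libraries of a sort. Only genes with a mean of at least 5 CPM were changed. The members differ in spread (luminal standard deviation within a stage 0.23 for *Nr3c1* and 2.11 for *Calca*), so these rates do not carry over to them. Luminal and basal libraries with the same number came from the same sort of 4 pooled mice, by date and the study's methods, and their deviations correlated with a median r of 0.25 over 22 pairs (21 positive, -0.00479 to 0.386, consensus correlation 0.1791). All 9 members were tested in each comparison and those called are named, with up to 3 called genes of a list and up to 3 genes of like pattern. The members and lists were chosen with earlier results of these data known. Alternatives were a pseudocount of 0.1, scaling without 7 milk protein genes, a mean of at least 5 CPM, median-ratio scaling, no trend, an adjusted p under 0.05, the sort as a block, no Id2, pairs within an amplification batch, the batches of Iw4 and M4 as a term, and each library left out. Leaving out the basal libraries that stand apart and removing the first component were chosen after seeing the data, as were the genes named as closest in the deviations of *Calca* and *Tnfsf11*. Tools were R 4.3.3, limma 3.58.1, edgeR 4.0.16, Python 3.11.15, pandas 2.3.3, numpy 2.4.6, scipy 1.17.1 and matplotlib 3.10.9.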

Additional observations from a re-analysis of the deposited data

Results flagged for a closer look

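The change in lactation differed between luminal and basal cells for 2 of the 9 genes, by the interaction test in limma, where 10.3% of all genes were called. For *Pgr* the basal minus luminal difference in change was 2.86 (standard error 0.712, adjusted p = 0.0035), from -3.53 in luminal and -0.67 in basal cells, and without L10 basal replicate 6 the adjusted p was 0.02. For *Greb1* it was -2.93 (standard error 0.549, adjusted p = 0.00015), from 1.39 in luminal and -1.54 in basal cells. Groups of 3 libraries were not searched for single libraries that stand far from the rest.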

How the results depend on the processing

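None of 61 single-gene differences followed through the alternatives turned sign. Over all 243 differences of the members, 10 had the opposite sign in edgeR, and neither limma nor edgeR called any of the 10 (adjusted p 0.16 or above). Counted once for each alternative, the 61 stayed on their side of the threshold in 450 cases, lost the call in 26 and gained one in 24, and with 1 library left out they stayed in 350, lost it in 93 and gained one in 8. The 61 include differences that were not called with all libraries and so could not lose a call. The losses therefore fall on fewer cases than these totals, and the totals understate how often a call was lost. The cause was not tested where a count changed, other than by a looser threshold or fewer samples. With an adjusted p under 0.05 the luminal calls were 27 and the basal calls 2, the successive steps 20 in luminal and 5 in basal cells, the basal lactation falls 2, the basal Id2 against W10 calls 2 and the basal F test count 5. In edgeR the basal calls, the luminal rise and basal fall in lactation and the basal Id2 against W10 calls were each 0, and the luminal steps 6. With no trend the basal calls were 0. With a pseudocount of 0.1 the luminal rise in lactation was 0 and the basal F count 5. With scaling outside the milk genes, which moved the median of all genes by -0.312 in luminal lactation, these were 0 and 5, the basal falls in lactation 2 and the luminal Id2 against W10 calls 5. With a mean of at least 5 CPM, which drops *Greb1*, the luminal rise and the basal fall were 0 and the interaction count 1. With the sort as a replicate block the luminal calls were 23 and the basal F count 5, *Wnt4* from Id2 to Iw4 in luminal cells gained a call (adjusted p = 0.0081), and no other call changed. Without Id2 the basal F count was 0. In place of the F test, 5 luminal and 1 basal members were called in at least 1 pair of stages within an amplification batch. Without Id2 basal replicates 2 and 6, which leaves 1 Id2 basal library, the basal calls were 2 and the basal F count 5 (*Pgr*, *Greb1* and *Tnfrsf11a* in, *Nr3c1* out at 0.07). Without L3 basal replicate 4 and Iw4 basal replicate 3 the basal calls were 0, the basal falls in lactation 2 and the basal steps 1. With each library left out in turn, luminal calls were 14 to 19, basal calls 0 to 2, steps 7 to 14 in luminal and 1 to 4 in basal cells, Id2 against W10 calls 1 to 3 in luminal and 0 to 2 in basal cells, Iw4 against M4 calls 0 to 0, lactation falls 1 to 2 in luminal and 0 to 2 in basal cells, rises 0 to 1 in both, interactions 1 to 3, and F counts 7 to 9 in luminal and 1 to 4 in basal cells. In basal libraries 3 reads are at most 0.62 CPM, and 10 of 22 held fewer than 3 reads of *Tnfsf11*, 5 of *Greb1* and 5 of *Calca*.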
